A study of Homo sapiens with 12 samples.

Results

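The genes described here encode the constitutive subunits of the proteasome, taken from a gene count table of 4 OCI-Ly7 lines by their symbols: PSMA, PSMB, PSMC or PSMD followed by a number, without the immunoproteasome genes PSMB8, PSMB9 and PSMB10. The rule found 36 of the 28278 genes in the table, of which 16 belong to the core particle and 20 to the regulatory particle or its dedicated assembly chaperones. At least 1 count was present for 34 of them, and 32 (13 core and 19 regulatory) passed the filter on low counts and could be tested. The level that the filter asks for was reached in every library by 26 of the 32, and only in libraries with mutant EZH2 by 1, PSMD12.

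The proteasome is the protease that degrades ubiquitin-tagged proteins in the cytosol and nucleus. Its core particle is a barrel of stacked rings in which the outer alpha rings gate the entrance and the inner beta rings carry the active sites. The regulatory particle caps the barrel: a base with an ATPase ring unfolds the substrate and a lid removes its ubiquitin chain. Subunit genes are known to be switched on together by the transcription factor NFE2L1 when proteasome activity falls short, and proteasome inhibitors are in clinical use against plasma cell and mantle cell malignancies.

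OCI-Ly7 is an established human B-cell lymphoma line, grown here without treatment. The groups were the unmodified line (labelled WT), a line with EZH2 Y646N, a line labelled kmt2d-/- (called the KMT2D mutant below) and a line carrying both changes, called the double mutant. EZH2 is the histone H3 methyltransferase of Polycomb repressive complex 2, for which this substitution is known as a gain of function, and KMT2D is a histone H3 methyltransferase that acts at enhancers. The labels do not say how each line was made or whether it is 1 clone, so line-to-line differences unrelated to the named mutations cannot be told apart from them. The EZH2 mutant was represented by 2 libraries, its replicate 3 not being analysed here, and each other line by 3. Nothing states that replicates were separate cultures, so that p-values here reflect the spread between libraries, which may be technical.

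Transcripts were counted by MARS-seq, which sequences barcoded cDNA from transcript 3′ ends. Library totals ran from 1118710 to 3107871 counts, and 8813 genes were tested. The B-cell markers MS4A1, CD79A, CD79B and PAX5 were detected in every library. Summed markers of T and NK cells reached at most 27.3 CPM (counts scaled to a common library total), those of myeloid cells at most 33.2 CPM and those of fibroblasts and epithelium at most 5.69 CPM. CD3D, CD2, CSF1R, S100A8, S100A9, COL1A2 and KRT18 were at 0 in every library. KMT2D itself had a log2 fold change of 0.19 ± 0.27 (SE) in the KMT2D mutant and EZH2 of -0.23 ± 0.17 in the EZH2 mutant, neither called. The labels do not give the edited site, and a 3′ count outside it does not check the genotype. In these bulk samples, fewer cells of a type and less RNA per cell cannot be told apart. Levels of single genes below are TMM-normalised CPM, that is, CPM with the library totals rescaled by edgeR's trimmed mean of M-values. A gene was called higher or lower at an adjusted p under 0.05, from the quasi-likelihood test of edgeR, adjusted over all tested genes after Benjamini and Hochberg.

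Promoter stretches are shown for 3 members: PSMB3 and PSMD3, called higher in the EZH2 mutant, and PSMD10, called lower. PSMB3 and PSMD3 carry the core of the antioxidant response element to which NFE2L1 and NFE2L2 bind, TGACNNNGC. PSMD10 had no match on either strand of its window, like most tested genes with a window, which shows the letters only. The stretches were chosen after the values were seen, start 250 bases before the RefSeq start on GRCh38.p14, end where the annotated gene begins, and are written 5′ to 3′ along the gene's strand with the motif in capitals. PSMB3 is at chr17:38752491-38752735 (plus strand), PSMD3 at chr17:39980557-39980796 (plus strand) and PSMD10 at chrX:108091619-108091792 (minus strand).
PSMB3: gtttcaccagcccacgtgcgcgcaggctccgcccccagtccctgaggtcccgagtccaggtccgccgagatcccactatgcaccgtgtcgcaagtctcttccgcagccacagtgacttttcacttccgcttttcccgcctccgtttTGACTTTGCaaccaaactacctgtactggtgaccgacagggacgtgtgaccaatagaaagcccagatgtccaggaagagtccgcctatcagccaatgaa
PSMD3: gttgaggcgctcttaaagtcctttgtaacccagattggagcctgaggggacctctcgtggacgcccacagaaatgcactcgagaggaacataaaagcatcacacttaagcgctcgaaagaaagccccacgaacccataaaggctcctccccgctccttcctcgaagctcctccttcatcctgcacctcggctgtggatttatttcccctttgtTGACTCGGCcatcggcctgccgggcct
PSMD10: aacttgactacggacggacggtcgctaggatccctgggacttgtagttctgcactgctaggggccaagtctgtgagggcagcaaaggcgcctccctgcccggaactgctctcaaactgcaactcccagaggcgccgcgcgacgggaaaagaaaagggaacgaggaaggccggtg
RefSeq windows from 250 bases before to 50 after a start were held for 31 of the 36 members, and not for PSMA7, PSMB1, PSMB6, PSMB7 and PSMD4. TGACNNNGC was present on either strand in 9 of the 31, or 29%, against 16.1% of 27305 genes with a window and 20.2% of the 7007 tested genes with one. It was found in 2 of 12 core members (PSMA4, PSMB3) and 7 of 19 regulatory members (PSMC4, PSMC5, PSMD1, PSMD3, PSMD12, PSMD5, PSMD9). Of members called higher in the EZH2 mutant 7 of 14 with a window had the motif, with PSMD12 among them, and of the other tested members 2 of 13 (PSMD5 and PSMD9). The members called higher without a match were PSMA3, PSMB4, PSMB5, PSMC3, PSMD2, PSMD8 and PSMD13. For PSMA4 and PSMC5 the match lies in the window of an alternative start. For PSMC4 and PSMD1 the only match lies after the start, at distances of 27 and 39 bases. A match describes the letters and not occupancy by a factor, and a part of these factors in the changes was not tested.

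The first comparison asked how the EZH2 mutant differed from wild type. Of the 32 tested members, 18 were called higher, 1 was called lower and 13 were not called, where 32.3% of all tested genes were called, 17.1% higher and 15.1% lower. The median log2 fold change was 0.73 over the 13 core members and 0.83 over the 19 regulatory members, against -0.04 over all tested genes. All 3 catalytic beta subunits rose, as did all 3 non-ATPase subunits of the base, 3 of 6 tested alpha-ring members, 2 of 4 other beta subunits, 3 of 5 ATPases and 4 of 8 lid subunits. On the log2 scale the alpha-ring median against the wild-type mean was 0.04 in EZH2 mutant replicate 1 and 0.99 in replicate 2. Across the wild-type libraries that median ran from -0.26 to 0.20. The member that fell was the assembly chaperone PSMD10.

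**Figure D1:**
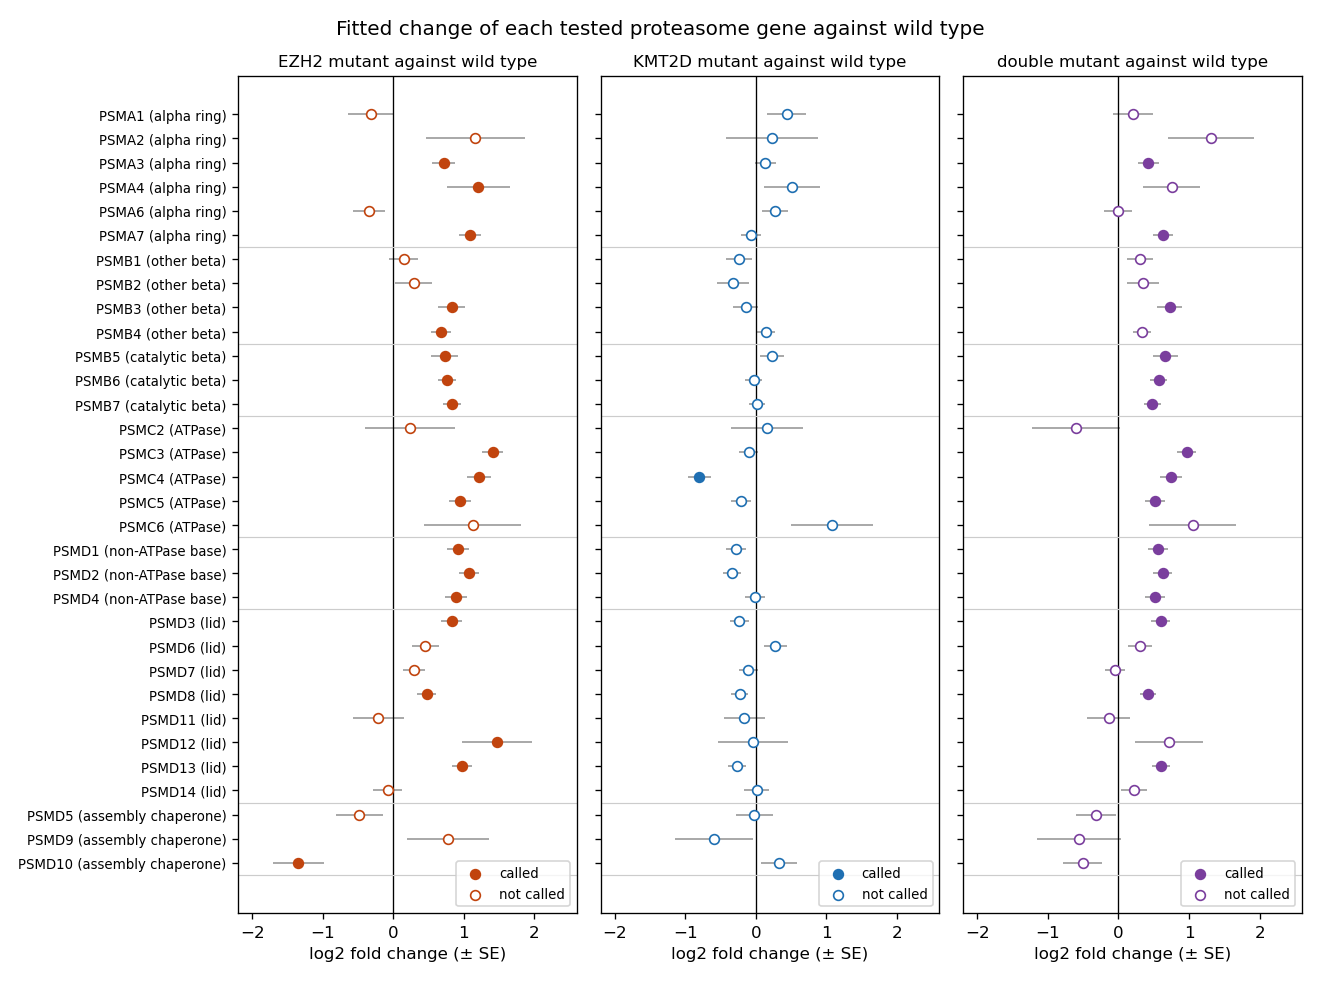
Log2 fold change against wild type (x axis, ± SE) of each of the 32 tested members, ordered by role (y axis), in the EZH2 mutant, the KMT2D mutant and the double mutant; filled points were called by edgeR and open points were not. Filled points lie to the right of 0 for 18 members in the EZH2 mutant and 15 in the double mutant, and to the left for PSMD10 in the EZH2 mutant and PSMC4 in the KMT2D mutant.

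The catalytic subunits cut the substrate: PSMB5 carries the chymotrypsin-like, PSMB6 the caspase-like and PSMB7 the trypsin-like activity. PSMB5 (chr14:23016543-23035230, minus strand) stood at 148, 102 and 141 normalised CPM across wild-type libraries, 205 and 226 in those of the EZH2 mutant, 182, 126 and 148 in those of the KMT2D mutant and 239, 218 and 162 in those of the double mutant. Both EZH2 mutant libraries lay above every wild-type and KMT2D mutant library, whereas the lowest double mutant library lay below the highest KMT2D mutant library. The log2 fold change of PSMB5 against wild type was 0.73 ± 0.19 (SE) in the EZH2 mutant (edgeR adjusted p = 0.00742) and 0.66 ± 0.17 in the double mutant (edgeR adjusted p = 0.00926). Without wild-type replicate 2 it was called in neither. The call in the EZH2 mutant was also lost without EZH2 mutant replicate 2, and that in the double mutant without double mutant replicate 1.

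PSMB6 (chr17:4796144-4798503, plus strand) stood at 329, 285 and 287 normalised CPM across wild-type libraries, 561 and 459 in those of the EZH2 mutant, 284, 313 and 284 in those of the KMT2D mutant and 457, 443 and 434 in those of the double mutant. The 5 libraries with mutant EZH2 lay above the 6 libraries without it. Here and below, the share of all tested genes split in this way was not computed. PSMB6 was 0.76 higher on the log2 scale in the EZH2 mutant (SE 0.13, edgeR adjusted p = 0.000269) and 0.57 higher in the double mutant (SE 0.12, edgeR adjusted p = 0.00184). PSMB7 (chr9:124353466-124415444, minus strand) stood at 295, 329.8 and 292 normalised CPM across wild-type libraries, 504 and 578 in those of the EZH2 mutant, 309, 289 and 330.1 in those of the KMT2D mutant and 433, 448 and 399 in those of the double mutant. Its libraries were split in the same way, and its log2 fold changes were 0.83 ± 0.13 in the EZH2 mutant (edgeR adjusted p = 0.000103) and 0.48 ± 0.12 in the double mutant (edgeR adjusted p = 0.00569). In the KMT2D mutant the 3 catalytic genes had log2 fold changes of 0.23, -0.03 and 0.02, and none was called.

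Among alpha-ring genes, which form the gated outer rings, PSMA7 (chr20:62136735-62143440, minus strand) had the smallest adjusted p. Its level was 315, 391 and 316 normalised CPM across wild-type libraries, 666 and 784 in those of the EZH2 mutant, 344, 291 and 338 in those of the KMT2D mutant and 625, 523 and 433 in those of the double mutant. Every library with mutant EZH2 exceeded every library without it, although the double mutant libraries spread from 433 to 625. PSMA7 here, and PSMB4, PSMB3, PSMC3, PSMC4, PSMD2 and PSMD13 below, were picked partly for small adjusted p, which favours such separation. The log2 fold change was 1.09 ± 0.16 in the EZH2 mutant (edgeR adjusted p = 4.54e-05) and 0.63 ± 0.14 in the double mutant (edgeR adjusted p = 0.00330). PSMA3 also rose, by 0.71 ± 0.17 in the EZH2 mutant (edgeR adjusted p = 0.00318) and by 0.42 ± 0.15 in the double mutant (edgeR adjusted p = 0.0479). Of these, the call in the double mutant was lost in 16 of 21 alternative settings. PSMA4 was counted 288 times over all libraries and was called higher in the EZH2 mutant at 1.20 ± 0.44 (edgeR adjusted p = 0.0465), a call lost in 14 of 21 alternatives, among them those without wild-type replicates 1, 2 or 3 and without EZH2 mutant replicate 2. PSMA1, PSMA2 and PSMA6 had log2 fold changes of -0.32, 1.16 and -0.34 and were not called.

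Among the beta subunits without an active site, PSMB4 (chr1:151399534-151401944, plus strand) stood at 383, 443 and 400.2 normalised CPM across wild-type libraries, 624 and 683 in those of the EZH2 mutant, 480.1, 417 and 453 in those of the KMT2D mutant and 611, 482 and 453 in those of the double mutant. The EZH2 mutant libraries lay above all others, while double mutant and KMT2D mutant libraries overlapped. PSMB4 rose by 0.68 ± 0.14 on the log2 scale in the EZH2 mutant (edgeR adjusted p = 0.00139), and in the double mutant its log2 fold change was 0.33 ± 0.13 (edgeR adjusted p = 0.0652). PSMB3 (chr17:38752736-38764231, plus strand), whose promoter stretch is shown above, stood at 205, 220.3 and 197 normalised CPM across wild-type libraries, 358 and 376 in those of the EZH2 mutant, 235, 132 and 189.9 in those of the KMT2D mutant and 415, 339 and 275 in those of the double mutant. The 5 libraries with mutant EZH2 were the highest, and the KMT2D mutant libraries were spread on both sides of wild type. PSMB3 rose by 0.82 ± 0.19 in the EZH2 mutant (edgeR adjusted p = 0.00389) and by 0.73 ± 0.17 in the double mutant (edgeR adjusted p = 0.00628). PSMB1 had log2 fold changes of 0.15 (EZH2 mutant) and 0.30 (double mutant), and PSMB2 of 0.29 and 0.35, with neither gene called.

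The ATPases PSMC1 to PSMC6 form the ring that unfolds the substrate. PSMC3 (chr11:47418769-47426473, minus strand) had the smallest adjusted p of all members in the EZH2 mutant, with 171, 172 and 185 normalised CPM across wild-type libraries, 526 and 413 in those of the EZH2 mutant, 159, 189 and 146 in those of the KMT2D mutant and 362, 374 and 296 in those of the double mutant. The 3 wild-type libraries lay between 171 and 185, and every library with mutant EZH2 was at 296 or above. The log2 fold change was 1.41 ± 0.15 in the EZH2 mutant (edgeR adjusted p = 2.28e-06) and 0.97 ± 0.14 in the double mutant (edgeR adjusted p = 4.85e-05). PSMC4 (chr19:39971005-39981441, plus strand), on the long arm of chromosome 19, stood at 114, 74.8 and 109 normalised CPM across wild-type libraries, 242 and 218 in those of the EZH2 mutant, 59.1, 50.3 and 59.0 in those of the KMT2D mutant and 151, 165 and 182 in those of the double mutant. All 4 lines occupied separate ranges, in the order KMT2D mutant, wild type, double mutant and EZH2 mutant. PSMC4 rose by 1.21 ± 0.17 in the EZH2 mutant (edgeR adjusted p = 3.53e-05) and by 0.75 ± 0.15 in the double mutant (edgeR adjusted p = 0.00170). PSMC5 rose by 0.94 and 0.51 in those lines (edgeR adjusted p = 0.000185 and 0.0128). In the double mutant it was not called without wild-type replicate 3 or without double mutant replicate 1 or 2. PSMC2 and PSMC6, with 75 and 118 counts over all libraries, had log2 fold changes of 0.23 ± 0.64 and 1.12 ± 0.69 in the EZH2 mutant and were not called.

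**Figure D2:**
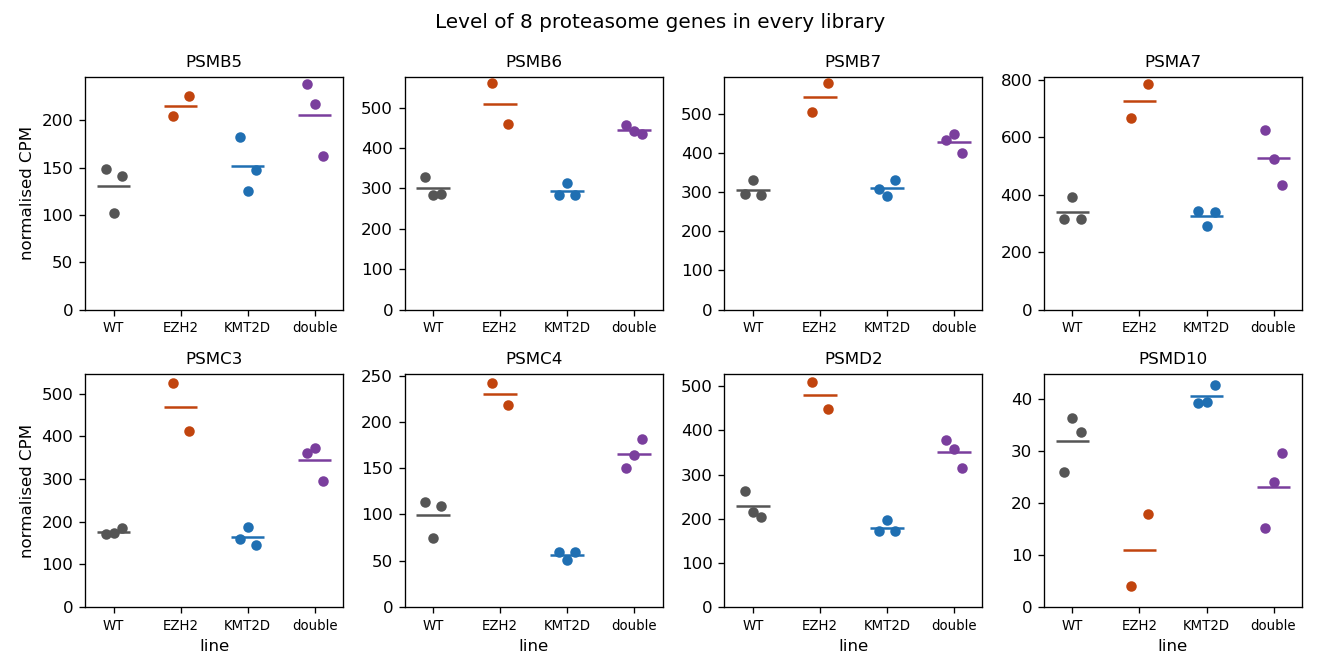
Level of 8 members in every library (points, TMM-normalised CPM from 0) by line, with the mean of each line as a bar. For PSMB6, PSMB7, PSMA7, PSMC3, PSMC4 and PSMD2 the 5 libraries with mutant EZH2 lie above the 6 others. PSMA7, PSMC3, PSMC4 and PSMD2 had small adjusted p in the same comparisons and were picked partly for it, which favours separated libraries. The share of all tested genes split in this way is not given. PSMC4 is lowest in the KMT2D mutant. The mean of PSMD10 is lowest in the EZH2 mutant, and its double mutant libraries overlap with wild type.

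The non-ATPase base holds PSMD1 and PSMD2, the large scaffold subunits, and PSMD4, a receptor for ubiquitin chains. PSMD2 (chr3:184298709-184309054, plus strand) stood at 264, 215 and 204 normalised CPM across wild-type libraries, 510.1 and 449.8 in those of the EZH2 mutant, 172, 196 and 171 in those of the KMT2D mutant and 378, 358 and 314 in those of the double mutant. The libraries with mutant EZH2 were all above the wild-type maximum, and the KMT2D mutant libraries were all below the wild-type minimum, although PSMD2 was not called there (log2 fold change -0.34 ± 0.13, edgeR adjusted p = 0.127). The log2 fold change against wild type was 1.08 ± 0.14 in the EZH2 mutant (edgeR adjusted p = 2.12e-05) and 0.62 ± 0.13 in the double mutant (edgeR adjusted p = 0.00169). PSMD1 rose by 0.92 in the EZH2 mutant and 0.56 in the double mutant (edgeR adjusted p = 0.000217 and 0.00726). PSMD4 rose by 0.89 and 0.52 (edgeR adjusted p = 0.000357 and 0.0120), and its call in the double mutant was lost without wild-type replicate 3 or double mutant replicate 1.

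The lid carries the deubiquitinase PSMD14 and the structural subunits around it. PSMD13 (chr11:236546-252984, plus strand) stood at 256, 206 and 204 normalised CPM across wild-type libraries, 479 and 396 in those of the EZH2 mutant, 179, 193 and 179 in those of the KMT2D mutant and 344, 358 and 309 in those of the double mutant. As for PSMD2, each library with mutant EZH2 exceeded the highest wild-type library and each KMT2D mutant library was below the lowest. PSMD13 rose by 0.98 ± 0.14 in the EZH2 mutant (edgeR adjusted p = 4.70e-05) and by 0.60 ± 0.13 in the double mutant (edgeR adjusted p = 0.00201). PSMD8 (chr19:38374536-38383824, plus strand), the other member on the long arm of chromosome 19, stood at 427, 345 and 426 normalised CPM across wild-type libraries, 581 and 527 in those of the EZH2 mutant, 352, 331 and 339 in those of the KMT2D mutant and 569, 535 and 495 in those of the double mutant. Its libraries with mutant EZH2 were the 5 highest, with log2 fold changes of 0.47 ± 0.13 in the EZH2 mutant (edgeR adjusted p = 0.0108) and 0.42 ± 0.12 in the double mutant (edgeR adjusted p = 0.0154). Neither call held without wild-type replicate 2, the first was lost without EZH2 mutant replicate 1, and the second without double mutant replicate 1.

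PSMD3 rose by 0.83 in the EZH2 mutant and 0.60 in the double mutant (edgeR adjusted p = 0.000400 and 0.00332). PSMD12, with 87 counts in all, was called higher in the EZH2 mutant at 1.47 ± 0.49 (edgeR adjusted p = 0.0281), from 2.83, 2.72 and 2.68 CPM in wild type and 4.10 and 9.93 in the EZH2 mutant. Those levels are near that of 3 counts, which is 0.965 to 2.68 CPM across the libraries, and the call was lost in 4 of the 13 alternatives in which it was tested. PSMD12 passed the filter, which asks for 4.62 unscaled CPM in 2 libraries, only through EZH2 mutant replicate 2 and double mutant replicate 1, so its being tested depended on the libraries where it was high. It was also called with no filter, and without it 17 members were called higher in the EZH2 mutant. The lid members PSMD6, PSMD7, PSMD11 and PSMD14 were not called, with log2 fold changes of 0.46, 0.29, -0.21 and -0.08 in the EZH2 mutant.

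PSMD5, PSMD9 and PSMD10 are chaperones that help build the base and leave the finished particle. PSMD10 (chrX:108084207-108091618, minus strand), also known as gankyrin and singled out after its values were seen, stood at 26.03, 36.4 and 33.7 normalised CPM across wild-type libraries, 4.10 and 17.9 in those of the EZH2 mutant, 39.3, 39.6 and 42.9 in those of the KMT2D mutant and 15.3, 24.2 and 29.6 in those of the double mutant. The EZH2 mutant libraries lay below every wild-type and KMT2D mutant library, and the double mutant libraries overlapped with both wild type and the EZH2 mutant. PSMD10 fell in the EZH2 mutant, with a log2 fold change of -1.35 ± 0.36 (edgeR adjusted p = 0.00868), which was not called without EZH2 mutant replicate 1 (edgeR adjusted p = 0.0771). The size of the fall rested on that library, which held 4 counts of PSMD10: the log2 fold change was -0.84 without it and -2.97 without EZH2 mutant replicate 2. In the double mutant its log2 fold change was -0.51 ± 0.28 (edgeR adjusted p = 0.205). PSMD5 and PSMD9 had log2 fold changes of -0.48 and 0.77 in the EZH2 mutant and were not called.

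EZH2 mutant replicate 1 was the shallowest library. Without it the line had 1 library left, and the regulatory median log2 fold change was 0.70. Without EZH2 mutant replicate 2 the core median was 0.61. Leaving out any 1 library of another line gave 14 to 18 members called higher and 1 lower, not always the same members. The calls in the EZH2 mutant depended in part on scaling. TMM factors were 0.875 and 0.926 in the EZH2 mutant libraries and 1.01 to 1.07 in wild type. With no scaling beyond library totals, which shifted the median of all genes by -0.21 on the log2 scale, 15 members were called higher and 1 lower, while calls over all genes went from 1511 higher and 1335 lower to 909 higher and 1936 lower. The median log2 fold changes were then 0.52 for the core and 0.61 for the regulatory particle. Of the 19 members called either way, 13 kept their call in every alternative setting.

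The second comparison set the KMT2D mutant against wild type. PSMC4 was called lower and 31 tested members were not called, where 7.66% of all tested genes were called, 3.18% higher and 4.48% lower. The count of 0 members higher was also 0 with DESeq2, with limma-voom and at an unadjusted p under 0.05 in edgeR, and 3 members were lower at that unadjusted level. Medians were 0.13 over the core and -0.11 over the regulatory particle on the log2 scale, against 0.00 over all tested genes. PSMC4 fell by 0.80 (SE 0.16, edgeR adjusted p = 0.00325) and kept this call in all 21 alternatives.

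PSMC4 lies in a stretch of chromosome 19 whose genes were lower in the KMT2D mutant as a group. Over 371 other tested genes of the long arm the median log2 fold change was -0.72, with 188 called lower and 5 higher. Within 1 Mb of PSMC4, 20 of 30 tested genes were called lower, with a median of -0.91, close to the -0.80 of PSMC4 itself. Within 1 Mb of PSMD8, 9 of 20 were called lower, with a median of -0.58, and PSMD8 was at -0.23 ± 0.12 and not called (edgeR adjusted p = 0.294). In the double mutant the arm's median was 0.12 against wild type, with 53 genes higher and 33 lower. The part of the arm in the PSMC4 value was not tested.

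The double mutant was compared with the same wild-type libraries. There 15 of the 32 tested members were called higher and 17 were not called, against a background of 23.7% of genes called, 12.1% higher and 11.6% lower. The count of 0 lower was also 0 with DESeq2, with limma-voom and at an unadjusted p under 0.05. Medians on the log2 scale were 0.48 for the core and 0.51 for the regulatory particle, against -0.01 over all genes. All 3 catalytic subunits and all 3 non-ATPase base subunits were again called, with 2 of 6 alpha-ring members, 1 of 4 other beta subunits, 3 of 5 ATPases and 3 of 8 lid subunits. The EZH2 mutant and double mutant fold changes share their wild-type libraries and are given side by side for that reason only. Of the 15 calls, 10 held in every alternative, and 10 members were called higher when double mutant replicate 1 was left out.

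When the double mutant was set directly against the EZH2 mutant, 0 of the 32 tested members were called by edgeR, DESeq2 or limma-voom, where 2.29% of all genes were called, 0.715% higher and 1.58% lower. At an unadjusted p under 0.05, 11 members were lower in the double mutant and 1 was higher. The median log2 difference was -0.10 for the core and -0.36 for the regulatory particle. PSMC3 differed by -0.44 ± 0.15 (edgeR adjusted p = 0.134) and PSMD2 by -0.45 ± 0.14 (edgeR adjusted p = 0.109). A missed threshold does not show that the levels in these 2 lines are alike. The interaction, which tests whether the effects of the 2 mutations add on the log2 scale, gave 0 calls by the same 3 tools against 3.02% of genes called, 1.5% higher and 1.52% lower. PSMB4 at -0.48 ± 0.19 and PSMB7 at -0.36 ± 0.17 were the members under an unadjusted p of 0.05.

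Against the KMT2D mutant the double mutant had 15 members higher and 1 lower, against a background of 41.9% of genes called, 21.2% higher and 20.8% lower. Medians were 0.46 for the core and 0.53 for the regulatory particle. PSMC4 had a log2 fold change of 1.55 ± 0.16 (edgeR adjusted p = 5.96e-07), in a chromosome arm whose other genes had a median of 0.82 in this comparison. Without the 2 members of that arm the regulatory median was 0.20, and 7 of 17 members were called higher, against 9 of 19 with them. The median of 0.53 is the value of PSMD4, and that of 0.20 is the value of PSMD14, the next member below it. PSMB1 and PSMB2, not called against wild type, were called here at 0.54 and 0.67, and both calls were lost without KMT2D mutant replicate 1 or 3, without double mutant replicate 2, with upper-quartile factors and with no scaling. The call of PSMB1 was also lost without double mutant replicate 3 and with trends of GC content and abundance removed, and that of PSMB2 with DESeq2. The member called lower was PSMD10, at -0.83 ± 0.28 (edgeR adjusted p = 0.0221). It was not called without KMT2D mutant replicate 1 or 3 or without double mutant replicate 1, and without double mutant replicate 3 PSMD10 and PSMA6 were both called lower.

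Levels were summed over all listed members, tested or not (16 core and 20 regulatory). The core particle averaged 2627 ± 8.16 normalised CPM over the wild-type libraries, 4032 ± 22.2 over those of the EZH2 mutant, 2625 ± 58.3 over those of the KMT2D mutant and 3590 ± 180 over those of the double mutant (SD, n = 3, 2, 3 and 3). The regulatory particle held 2208 ± 118, 3883 ± 315, 1938 ± 52.0 and 3144 ± 218 in the same order. The core over regulatory ratio was 1.13 to 1.26 in wild type, 0.978 to 1.11 in the EZH2 mutant, 1.35 to 1.36 in the KMT2D mutant and 1.12 to 1.17 in the double mutant. It was thus highest in the 3 KMT2D mutant libraries and lowest in the 2 EZH2 mutant libraries, with wild type and double mutant overlapping between them. Leaving out PSMC4 and PSMD8, the ranges were 1.47 to 1.58, 1.22 to 1.39, 1.69 to 1.71 and 1.43 to 1.52. The KMT2D mutant was again highest and the EZH2 mutant lowest. With all members the low end was close: 1.106 in EZH2 mutant replicate 2, 1.123 in double mutant replicate 1 and 1.127 in wild-type replicate 1. The part of the arm in the ratio was not tested. No test was made over the members, which are not replicates.

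**Figure D3:**
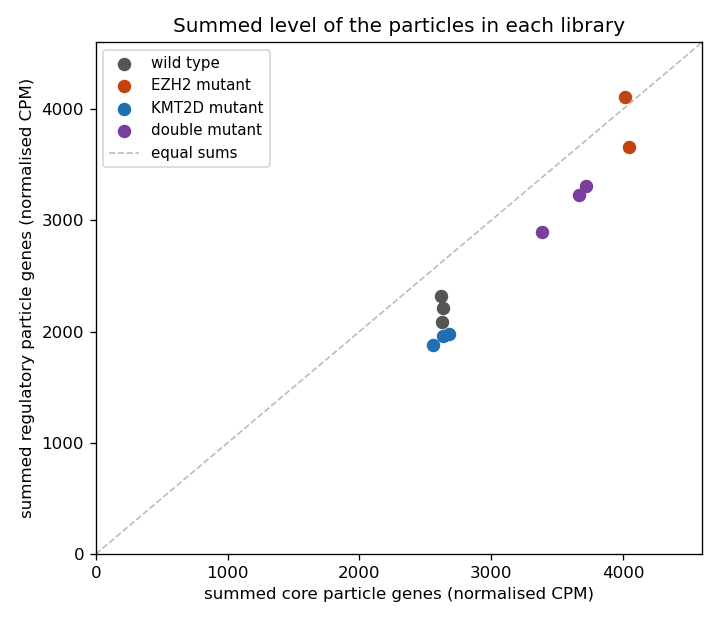
Summed level of the 16 core members (x axis) and the 20 regulatory members (y axis), tested or not, in each library, in TMM-normalised CPM. The dashed line marks equal sums. The 6 libraries without mutant EZH2 lie lower on the core axis, the 5 with it lie higher on both axes, and 1 EZH2 mutant library lies above the line.

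Base composition at the 3′ end moved with the calls. The last 500 bases of the longest coding transcript, taken as the likely counted 3′ end, had a median GC content of 50.8% over the 18 members called higher in the EZH2 mutant and 37.8% over the 13 not called, and PSMD10 was at 33.2%. Of 16 members with at least 45% GC, 13 were called higher, with a median log2 fold change of 0.83. Of 16 members below 45%, 5 were called higher and 1 lower, with a median of 0.37. The same divide ran through the whole table, with 27.2% of genes called higher at or above 45% and 7.95% below it. Spearman's rho between GC content and fold change, as a description across genes that share libraries, was 0.35 over the 32 members and 0.36 over 8500 genes.

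**Figure D4:**
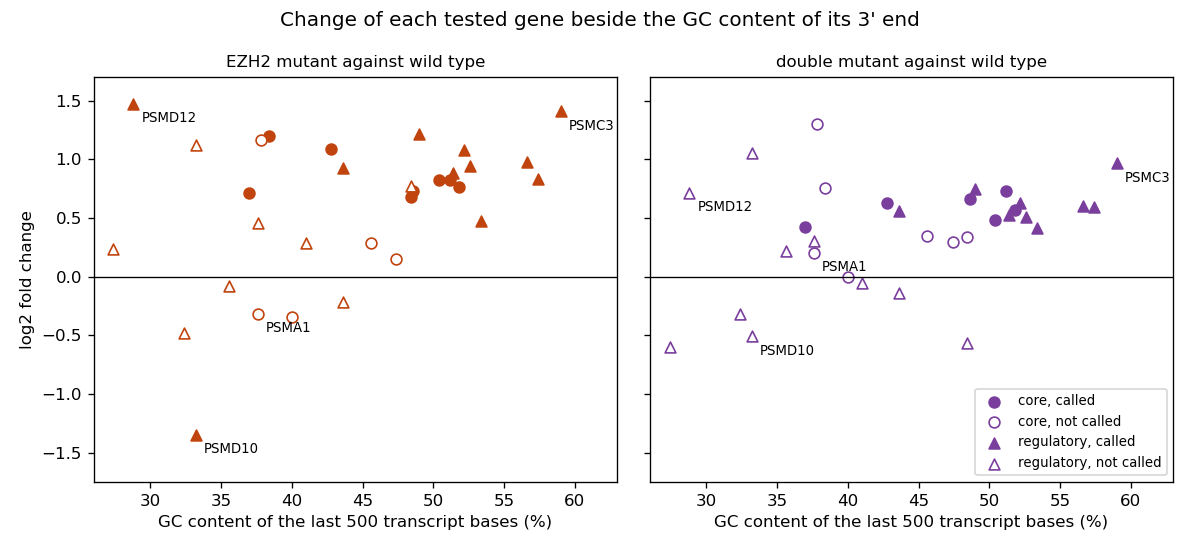
Log2 fold change against wild type (y axis) of the 32 tested members beside the GC content of the last 500 transcript bases in percent (x axis), in the EZH2 mutant and the double mutant, with circles for core and triangles for regulatory members, filled when called. Called members lie mostly at 45% or more, with PSMC3 farthest right and PSMD10 low at 33.2%.

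With trends of GC content and abundance over all genes removed, 17 members were called higher and 1 lower in the EZH2 mutant, and the medians were 0.48 for the core and 0.61 for the regulatory particle. Among the 19 members first called, 16 were called again, and PSMB3, PSMB5 and PSMD8 were not. In the double mutant 12 of 16 members at or above 45% GC and 3 of 16 below it were called higher, against 20.6% and 4.25% of all genes on those sides. In the KMT2D mutant rho was -0.59 over the 32 members and -0.30 over all genes. The part of base composition in the member values was otherwise not tested.

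A list of 41 related genes, of which 36 were tested, covers the proteasome's other partners. In the EZH2 mutant 12 of them were called higher and 2 lower, with a median log2 fold change of 0.15, where 17.1% of all tested genes were called higher and 15.1% lower. In the double mutant 9 were called higher and 2 lower with a median of 0.24, where the shares over all tested genes were 12.1% and 11.6%. In the KMT2D mutant NPLOC4, a cofactor of VCP, was called lower at -0.53 ± 0.15 (edgeR adjusted p = 0.0375), a call lost without wild-type replicate 1 or any 1 of the KMT2D mutant replicates, and 35 related genes were not called. PSME2, a subunit of the interferon-inducible activator, stood at 156, 148 and 137 normalised CPM across wild-type libraries, 421 and 394 in those of the EZH2 mutant, 113, 136 and 133 in those of the KMT2D mutant and 313, 355 and 318 in those of the double mutant. Every library with mutant EZH2 was above 300, the others below 160. PSME2 rose by 1.47 ± 0.13 in the EZH2 mutant (edgeR adjusted p = 4.48e-07) and 1.16 ± 0.12 in the double mutant (edgeR adjusted p = 1.58e-06). ADRM1, a ubiquitin receptor of the regulatory particle, rose by 1.21 and 0.67 in these lines (edgeR adjusted p = 1.32e-05 and 0.00177).

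The immunoproteasome subunits replace the constitutive catalytic ones in lymphoid cells. PSMB10 rose by 0.81 in the EZH2 mutant and 0.56 in the double mutant (edgeR adjusted p = 0.000191 and 0.00275). PSMB8 was called at 0.46 and 0.31 (edgeR adjusted p = 0.00835 and 0.0480), and PSMB9 at 0.36 in the EZH2 mutant (edgeR adjusted p = 0.0498), a call lost in 19 of 21 alternatives. Its log2 fold change in the double mutant was 0.25, not called. PSMB8 in the double mutant lost its call in 16 of 21. In the KMT2D mutant the 3 genes had log2 fold changes of 0.20, 0.19 and 0.18, with none called.

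Among the assembly chaperones of the core particle, PSMG4 rose by 0.85 in the EZH2 mutant (edgeR adjusted p = 0.000357). PSMG2 stood at 108, 119 and 159.9 normalised CPM across wild-type libraries, 65.5 and 75.0 in those of the EZH2 mutant, 149, 138 and 153 in those of the KMT2D mutant and 84.9, 73.3 and 89.5 in those of the double mutant. It was lowest in the 5 libraries with mutant EZH2 and fell by 0.87 in the EZH2 mutant and by 0.64 in the double mutant (edgeR adjusted p = 0.00139 and 0.00533). NFE2L1, the activator of proteasome genes, had a log2 fold change of 0.02 ± 0.16 in the EZH2 mutant and -0.23 ± 0.14 in the double mutant, and was not called. Its relative NFE2L2, the regulator of the oxidative stress response, was called lower in the EZH2 mutant at -2.10 ± 0.75 (edgeR adjusted p = 0.0418) from 251 counts in all. That call was lost in 7 of the 20 alternatives in which it was tested, among them those without wild-type replicate 2 or 3 and without EZH2 mutant replicate 1 or 2. MAFG, a partner of both factors, was called higher at 0.53 and 0.63, and lost the first call in 18 of 21 alternatives.

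UBB, a polyubiquitin gene, fell by 0.52 in the double mutant (edgeR adjusted p = 0.00310). UFD1, a cofactor of the unfoldase VCP, rose by 0.95 in the EZH2 mutant and 0.48 in the double mutant (edgeR adjusted p = 0.000130 and 0.0152), and VCP rose by 0.67 in the EZH2 mutant (edgeR adjusted p = 0.000797). The shuttle gene UBQLN4 was called at 1.17 in the double mutant (edgeR adjusted p = 0.0337), a call lost in 10 of the 20 alternatives in which it was tested. PSME1 was called at 0.50 and 0.37 (edgeR adjusted p = 0.00635 and 0.0255). PSME3 was called at 0.56 in the EZH2 mutant (edgeR adjusted p = 0.0477) and lost the call in 16 of 21 alternatives.

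A few members could not be measured or are uncertain. PSMA5, an alpha-ring gene, and PSMB11, a thymus-specific beta subunit, had 0 counts in every library, where 3 counts correspond to 0.965 to 2.68 CPM. PSMA8, a testis form of an alpha subunit, had 6 counts and PSMC1 had 10 over all libraries. The annotated last 500 bases of PSMC1 also belong to NRDE2 (100% of 50-base words), those of PSMA6 to AL121594.1 (100%), of PSMD7 to AC009120.2 (100%), of PSMD9 to WDR66 (85.8%) and of PSMA1 to AC018523.2 (45.9%). Counts of these 5 genes are therefore uncertain, and none of them was called in any comparison with wild type. PSMC3, PSMD2 and PSMD4 shared 7.54%, 9.76% and 10.4% of such words with other genes, mostly processed pseudogenes, and the other members shared none.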

How the data were processed

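The deposited table holds counts per gene, which the authors call corrected without saying for what. The submitters' processing notes name Trim Galore 0.6.0, cutadapt 1.15, FastQC, STAR 2.7.0f and DESeq2. The counting program, build, annotation and strand are not given in the sources used here, so sense and antisense reads cannot be told apart. Per the labels' protocols, 20 ng of total RNA entered each library. The table has columns for 11 of the 12 listed samples.

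Counts were fitted in R 4.3.3 with edgeR 4.0.16: filterByExpr (minimum count 10), TMM factors, and a robust quasi-likelihood model over all 11 libraries with 1 term per line. P-values were adjusted by Benjamini-Hochberg over all 8813 tested genes, at a threshold of 0.05. The SE is the log2 fold change divided by the root of F. Library totals of 1118710 to 3107871 counts limit the precision of members with few counts. Alternatives were other scaling (RLE, upper-quartile), no filter, a strict filter (mean of 10 CPM), DESeq2 1.42.0, limma-voom (limma 3.58.1), a replicate block, removal of GC and abundance trends (splines with 5 degrees of freedom), only the groups compared, leaving out each library, and, added after the data were seen, no scaling beyond library totals. The script was tested on simulated data.

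Members and lists were chosen with earlier results of these data known. Members are shown library by library by rule: the 3 catalytic genes, up to 4 core and 4 regulatory genes with the smallest adjusted p among those called in each comparison with wild type, and the members on the long arm of chromosome 19. Related genes are named when called against wild type or immunoproteasome subunits, and 1 that was called is not reported here. Members shown outside the rule, the GC boundary of 45%, the 50-base words and the motifs were chosen after values were seen. Gene places and 3′ ends come from GENCODE 29 (GRCh38), matched by symbol, and GC content was available for 8500 tested genes. Promoters come from RefSeq on GRCh38.p14. Python 3.11.15 was used with pandas 2.3.3 for tables, and with matplotlib 3.10.9 for figures.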

Additional observations from a re-analysis of the deposited data

How the results depend on the processing

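No result changed direction while called. In the EZH2 mutant against wild type, median log2 fold changes of the core and regulatory particle were 0.57 and 0.65 with upper-quartile factors, 0.52 and 0.61 without scaling, and 0.48 and 0.61 with GC and abundance trends removed. For the double mutant against wild type they were 0.36 and 0.40, 0.36 and 0.39, and, for the regulatory particle with trends removed, 0.33. For the double mutant against the KMT2D mutant they were 0.31 and 0.38, 0.31 and 0.38, and 0.30 and 0.42, where no member was called lower with trends removed (0). The regulatory median there was 0.69 without assembly chaperones and 0.20 without the long arm of chromosome 19, and that of the interaction was -0.21 without the arm. Between the double mutant and the EZH2 mutant, medians were 0.0098 and -0.26 with trends removed, and 1 member was called lower with no filter. On library totals, the core summed to 2733, 3619 and 2788 CPM in wild type, EZH2 mutant and KMT2D mutant, and the regulatory particle to 3480 and 2058 in the EZH2 mutant and KMT2D mutant. The cause of these shifts was not tested.

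Leaving out each library in turn, members called lower in the EZH2 mutant ranged from 0 to 1, its core median from 0.61 to 0.80 and its regulatory median from 0.70 to 0.83. In the KMT2D mutant the core median ranged from 0.0147 to 0.16 and the regulatory one from -0.23 to -0.10. In the double mutant the regulatory median ranged from 0.38 to 0.54. Against the EZH2 mutant, members higher in the double mutant ranged from 0 to 1, the core median from -0.22 to 0.0534 and the regulatory one from -0.38 to -0.17. Against the KMT2D mutant, members lower ranged from 0 to 2 and the regulatory median from 0.38 to 0.64. Interaction medians ranged from -0.37 to -0.11 for the core and from -0.22 to -0.0188 for the regulatory particle. Where this left the EZH2 mutant 1 library, it was assumed to vary like the other groups.

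Replicate numbers are shared by the lines, and nothing in the labels says that they pair libraries. Deviations from the line means correlated at -0.29 to 0.38 between same-numbered libraries of different lines (median -0.03, 15 pairs) and at -0.38 to 0.29 between libraries of other numbers (median -0.01, 30 pairs). Deviations within a line cancel, so those of the EZH2 mutant libraries are opposites of each other. Both ranges are therefore tied together and cannot decide whether libraries pair. The libraries were not treated as paired, since the labels do not pair them. By this measure 7 of 11 correlated best with their own number, with no expected count computed. That is a hint from the data and not from the design. With the replicate block, 17 members were called higher and 1 lower in the EZH2 mutant. For the interaction, which needs all 4 lines, no fit to fewer lines was run. Depth limits PSMA2, PSMC2, PSMC6, PSMD9 and PSMD12, each under 150 counts over all libraries.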

Other observations

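Other promoter motifs were counted on both strands of the same RefSeq windows, as a description. The CCAAT box (CCAAT) was found in 17 of 31 members, or 54.8%, against 44.5% of tested genes with a window, in 8 of 12 core and 9 of 19 regulatory members. The ETS site CCGGAAG was found in 12 of 31 members, or 38.7%, against 25.1%. By particle it was in 2 of 12 core and 10 of 19 regulatory members, and by response in 3 of 14 members called higher in the EZH2 mutant and 7 of 13 other tested members. The MYC E-box CACGTG was in 2 of 31 members, or 6.45%, against 13.8%. The site of nuclear respiratory factor 1 was in 1 of 31, or 3.23%, against 2.88%. No test was made on these counts.

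In the related list, 13 genes were called higher and 3 lower in the double mutant against the KMT2D mutant, out of 36 tested, where 21.2% of all tested genes were called higher and 20.8% lower. Those higher included 3 chaperones of the core particle, PSMG1 at 0.57, PSMG3 at 0.36 and PSMG4 at 0.52, the ubiquitin-activating enzyme UBA1 at 0.60 and the VCP cofactor NPLOC4 at 0.87 on the log2 scale. Another chaperone of the core particle, PSMG2, was called lower at -0.82, so these chaperones did not move together. PSMG4 was also the related gene called between the double mutant and the EZH2 mutant, at -0.58 ± 0.15 (edgeR adjusted p = 0.0496). That call was just under the threshold of 0.05, and was 1 of 36 tested genes. Over all tested genes 1.58% were called lower in that comparison.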
